A study of Mus musculus with 26 samples.

Results

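IGHV1-74, IGHV1-75, IGHV1-76, IGHV1-78, IGHV1-80, IGHV1-81, IGHV1-82, IGHV1-84 and IGHV1-85 are 9 variable (V) genes of the mouse immunoglobulin heavy chain that lie at the far end of the locus from the constant genes. They were chosen by family and position, with the V gene shares of the tissues in earlier results of these data known, so the tissue values below are a description and carry no test. They were 9 of 188 V genes called and held 197550 of 1674869 clonotypes, a clonotype being 1 combination of V gene, joining (J) gene and junction sequence. Heavy chain transcripts were sequenced in bulk from WT mice, in a series on germinal centers in skin and the microbiota, with 4 biological replicates of 2 technical libraries each for skin, lymph node and spleen. All tissue libraries carry the treatment label S. epidermidies association, so the groups differ in tissue and there is no untreated tissue. Their tissue field reads ear skin throughout, and the tissue was taken from the titles. A positive control, 1 sample of 2 technical libraries, is labelled as WT B cells with no treatment or source given. No label says how many animals were used or whether replicates were pooled, and p-values below measure only the spread between these samples.

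A heavy chain variable region is assembled in a developing B cell by joining 1 V gene to a D and a J segment, and the joint, the third complementarity-determining region (CDR3), is the most diverse stretch of the antibody. IGHV1, also called J558, is the largest V family of the mouse and fills the distal part of the locus, whose genes reach the D and J segments only after the locus contracts, a step that depends on factors such as Pax5 and YY1. Naive B cells express IgM and IgD with germline V sequence, and activated cells can switch to IgA, IgG or IgE and collect somatic mutations, as in germinal centers.

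In the GRCm38.p6 annotation the 9 genes are V segments on chromosome 12, from Ighv1-74 (chr12:115802690-115803080) to Ighv1-85 (chr12:116000028-116000321), a span of 197.632 kb. They lie between 2379.96 and 2577.3 kb from Ighm (chr12:113418826-113422730), the IgM constant gene. Of 183 V segments and V pseudogenes annotated, 1 lies farther out. The stretch holds 15, ends included: besides the 9, IGHV1-77 and IGHV1-83 were called in the tables, and IGHV1-79, IGHV8-14, IGHV8-15 and IGHV8-16 were not.

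The V sequence that the clonotypes cover is shown for all 9, so that the composite and control sequences below can be read against them. Each sequence has 144 bases, begins in the second complementarity-determining region and ends in the first codons of the CDR3. Each was found in all mismatch-free, fully aligned sequences of its gene in the tissues, from 2096 for the gene with the fewest to 29898 for the gene with the most. Capitals mark bases unlike the majority of the 9.
IGHV1-74: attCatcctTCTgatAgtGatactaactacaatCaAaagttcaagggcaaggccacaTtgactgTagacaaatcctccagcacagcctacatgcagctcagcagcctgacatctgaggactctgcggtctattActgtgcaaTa
IGHV1-75: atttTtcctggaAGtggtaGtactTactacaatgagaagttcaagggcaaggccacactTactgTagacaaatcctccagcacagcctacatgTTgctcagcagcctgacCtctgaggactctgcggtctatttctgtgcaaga
IGHV1-76: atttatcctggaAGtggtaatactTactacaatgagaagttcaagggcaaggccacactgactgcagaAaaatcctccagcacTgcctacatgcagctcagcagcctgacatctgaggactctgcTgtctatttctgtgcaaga
IGHV1-78: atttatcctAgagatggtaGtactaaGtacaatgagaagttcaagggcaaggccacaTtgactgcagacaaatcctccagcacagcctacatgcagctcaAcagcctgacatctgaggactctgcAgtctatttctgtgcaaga
IGHV1-80: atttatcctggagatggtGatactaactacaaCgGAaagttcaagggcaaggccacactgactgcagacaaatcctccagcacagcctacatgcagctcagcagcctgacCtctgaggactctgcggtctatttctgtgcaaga
IGHV1-81: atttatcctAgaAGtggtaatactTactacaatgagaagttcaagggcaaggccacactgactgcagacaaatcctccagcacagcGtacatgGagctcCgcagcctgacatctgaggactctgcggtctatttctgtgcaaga
IGHV1-82: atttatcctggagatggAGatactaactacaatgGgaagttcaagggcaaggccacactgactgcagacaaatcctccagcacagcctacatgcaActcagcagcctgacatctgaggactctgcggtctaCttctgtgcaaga
IGHV1-84: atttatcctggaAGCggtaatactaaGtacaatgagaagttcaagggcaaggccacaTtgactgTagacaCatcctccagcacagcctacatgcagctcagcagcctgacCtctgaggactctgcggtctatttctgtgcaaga
IGHV1-85: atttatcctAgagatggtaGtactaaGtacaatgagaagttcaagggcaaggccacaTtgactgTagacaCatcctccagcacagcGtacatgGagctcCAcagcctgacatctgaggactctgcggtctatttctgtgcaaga

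All 9 shared 109 of the 144 bases, and identity over the 36 pairs ran from 86.1% to 95.8% with a median of 92.0%. IGHV1-80 and IGHV1-82 differed at 6 bases, as did IGHV1-78 and IGHV1-85, and IGHV1-76 and IGHV1-81 differed at 7. IGHV1-74 stood farthest apart, with 13 differences from its closest relative among the 9, IGHV1-80.

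Depth differed greatly between tissues. Skin replicates held 275 to 350 clonotypes, spleen 25645 to 438995, lymph node 27520 to 117561 and the control 386982. Of these, skin had 128 of the 9 genes in all (28 to 41 per replicate), spleen 147299, lymph node 38534 and the control 11589. Between 2.87% and 7.39% of a tissue replicate's clonotypes were found in both of its technical libraries, so most were sampled by 1 library. In skin, 0, 2, 2 and 1 of the clonotypes of the 9 genes in replicates 1 to 4 were in both.

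Counted as clonotypes of both libraries, the 9 genes together made a smaller share in every skin replicate than in any spleen replicate. Their summed share in skin was 8.29% (95% exact Clopper-Pearson interval 5.62 to 11.7), 12.8% (9.35 to 17.0), 9.32% (6.37 to 13.0) and 10.2% (6.87 to 14.4), a mean of 10.1% ± 1.94 (SD, n = 4). The intervals cover counting error only, since copies of 1 molecule or cells of 1 clone are not independent. Spleen had 18.0%, 13.9%, 15.4% and 15.4%, a mean of 15.7% ± 1.71 (SD, n = 4). Lymph node had 12.8%, 13.8%, 12.4% and 12.8%, a mean of 12.9% ± 0.606 (SD, n = 4), below every spleen replicate and overlapping with skin through skin replicate 2. The gap to spleen was narrow, with 13.82% as the highest lymph node and 13.91% as the lowest spleen value. Lymph node and spleen overlapped by copies (lymph node up to 13.99%, spleen from 13.49%) and by lineages, defined below (14.13% and 13.76%). They also overlapped within IgM (13.36% and 13.22%) and without single-copy clonotypes (13.72% and 12.30%). The control stood at 2.99%. By copies, the deposited count of each sequence, the means were 15.6% ± 2.24 for spleen, 12.4% ± 1.88 for lymph node and 8.84% ± 4.07 for skin (SD, n = 4), and skin (4.29% to 14.2%) overlapped with spleen (13.5% to 18.3%). In bulk RNA, fewer cells of a clone and less transcript per cell cannot be told apart. The skin value moved with the library: technical library 1 alone gave 7.08% ± 3.66 and library 2 alone 12.2% ± 1.78 (SD, n = 4). With library 2 alone skin reached 13.9%, above the lowest spleen value of 13.4%, and the lymph node mean was 12.7%.

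**Figure D1:**
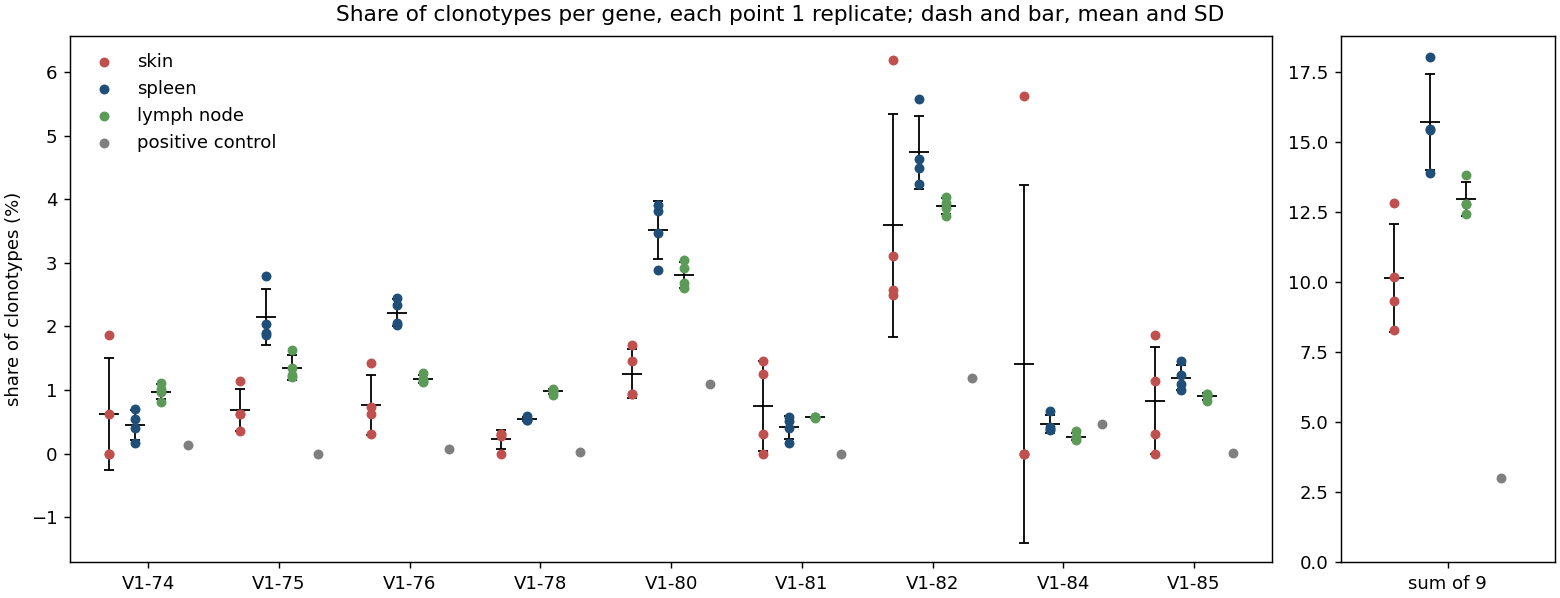
Share of clonotypes (%, linear axis) of each of the 9 genes (left) and of their sum (right) in skin, spleen, lymph node and positive control. Each point is 1 replicate, and dash and bar give the mean and SD of 4, with bars below 0 a product of the SD alone. Skin points of IGHV1-75, IGHV1-76, IGHV1-78 and IGHV1-80 lie below all spleen points, and skin replicate 2 stands alone for IGHV1-84 at 5.63%.

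IGHV1-82 had the highest mean share of the 9 in each tissue, though IGHV1-84 exceeded it in skin replicate 2 (5.63% against 2.5%). IGHV1-82 had 2.57%, 2.5%, 3.11% and 6.18% of skin clonotypes in replicates 1 to 4, and 5.57%, 4.24%, 4.50% and 4.63% of spleen clonotypes. In lymph node it had 3.86%, 4.04%, 3.74% and 3.95%. Skin replicate 4 exceeded every spleen replicate, and the other skin replicates lay below all spleen and lymph node values. This order rests on related clonotypes: of the 17 in skin replicate 4, 1 lineage (defined below) held 7 and another 6. By lineages IGHV1-82 had 3.41%, 4.07%, 3.54% and 3.80% in skin, within the spleen range of 3.25% to 5.31%. Lymph node then had 3.46% to 3.68%, and skin overlapped with it too. IGHV1-80, its nearest relative in sequence, had 1.71%, 0.938%, 0.932% and 1.45% in skin. Its spleen values were 3.91%, 2.89%, 3.47% and 3.81%, and its lymph node values 2.92%, 3.04%, 2.60% and 2.69%. Skin was below both lymphoid tissues in all replicates, while spleen and lymph node overlapped.

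IGHV1-75 and IGHV1-76 had their highest shares in spleen. IGHV1-75 stood at 1.14%, 0.625%, 0.621% and 0.364% of skin clonotypes, at 2.79%, 1.90%, 1.87% and 2.04% of spleen and at 1.20%, 1.62%, 1.25% and 1.35% of lymph node clonotypes. IGHV1-76 stood at 1.43%, 0.625%, 0.311% and 0.727% of skin, 2.34%, 2.06%, 2.45% and 2.02% of spleen, and 1.14%, 1.27%, 1.12% and 1.18% of lymph node clonotypes. By clonotypes no spleen replicate of either gene reached down to any lymph node replicate, and skin overlapped with lymph node for IGHV1-76 only. By copies IGHV1-75 overlapped between spleen (from 1.61%) and lymph node (up to 2.20%). Its skin copies (up to 1.05%) overlapped with lymph node (from 0.990%) as well.

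IGHV1-74 and IGHV1-78 had the opposite order between the lymphoid tissues. IGHV1-78 had 0.526%, 0.553%, 0.590% and 0.531% in spleen, and 0.967%, 1.01%, 1.02% and 0.920% in lymph node. IGHV1-74 had 0.164%, 0.706%, 0.542% and 0.398% in spleen, and 0.814%, 1.11%, 1.02% and 0.966% in lymph node. By clonotypes all lymph node replicates exceeded all spleen replicates for both genes. By copies and by lineages this held for IGHV1-78 only. IGHV1-74 then overlapped, with spleen up to 0.847% and lymph node from 0.520% by copies. By lineages its spleen values reached up to 1.107% and its lymph node values down to 1.002%. In skin, IGHV1-78 was seen as 3 clonotypes in all and IGHV1-74 as 8, of which 6 were in replicate 3.

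In lymph node the mean shares of IGHV1-81, IGHV1-84 and IGHV1-85 were the lowest of the 9 genes. By mean share in spleen, IGHV1-85 took place 5, IGHV1-84 place 7 and IGHV1-81 place 9. IGHV1-85 had a mean of 1.20% ± 0.201 in spleen and 0.901% ± 0.0549 (SD, n = 4) in lymph node, with no overlap between the tissues. IGHV1-84 had 0.465% ± 0.144 in spleen and 0.271% ± 0.0614 in lymph node, also without overlap. By copies both genes overlapped. IGHV1-85 then reached down to 0.553% in spleen and up to 1.32% in lymph node, and IGHV1-84 down to 0.356% and up to 0.371%. IGHV1-81 stood at 0.415% ± 0.178 in spleen and 0.573% ± 0.00310 in lymph node, where spleen replicate 1 (0.577%) exceeded all lymph node replicates. In skin IGHV1-85 and IGHV1-81 had 11 and 9 clonotypes in all. IGHV1-84 was found in skin replicate 2 alone, at 5.63% (18 of 320 clonotypes). Its 0 clonotypes in skin replicates 1, 3 and 4 allow shares of up to 0.857%, 0.932% and 1.09% (3 counts of each total), all above its spleen level, so at this depth those replicates could hold it at that level unseen.

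Over the 82 V genes with at least 10 clonotypes in every spleen and lymph node replicate, counts of genes whose groups did not overlap were read beside the same counts for all genes. Skin lay below spleen for 4 of the 9 (IGHV1-75, IGHV1-76, IGHV1-78 and IGHV1-80), where 12.2% of all 82 did, and above spleen for 0 of the 9 (3.66% of all). Skin lay below lymph node for 3 of the 9 (IGHV1-75, IGHV1-78 and IGHV1-80; 13.4% of all) and above it for 0 (1.22% of all). Those of IGHV1-75, IGHV1-76 and IGHV1-80 rest on 9, 10 and 16 skin clonotypes in all. By copies skin overlapped with spleen for IGHV1-78 and with lymph node for IGHV1-75. For IGHV1-78 both calls rest on 3 skin clonotypes in all. A level of 3 counts is 0.857% to 1.09% of a skin replicate. The IGHV1-78 shares of spleen (0.526% to 0.590%) lay below that range and those of lymph node (0.920% to 1.02%) within it. At this depth skin could hold IGHV1-78 at those levels. Spleen lay above lymph node for 5 of the 9 (IGHV1-75, IGHV1-76, IGHV1-82, IGHV1-84 and IGHV1-85; 18.3% of all) and below it for IGHV1-74 and IGHV1-78, 2 of the 9 (20.7% of all). These counts hold for shares of clonotypes. By copies spleen and lymph node overlapped for IGHV1-74, IGHV1-75, IGHV1-82, IGHV1-84 and IGHV1-85, and by lineages for IGHV1-74 and IGHV1-82. The median log2 ratio of mean shares, spleen over lymph node, was 0.32 over the 9 genes, -0.10 over all 82 and -0.12 over 35 other IGHV1 genes. Skin over spleen it was -0.53 over the 9 and 0.09 over the 77 genes seen in skin, and skin over lymph node -0.61 and 0.05. Within IgM alone, spleen lay above lymph node for 4 of the 9 (IGHV1-75, IGHV1-76, IGHV1-82 and IGHV1-85; 20% of 80 genes) and below it again for IGHV1-74 and IGHV1-78 (20%).

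**Figure D2:**
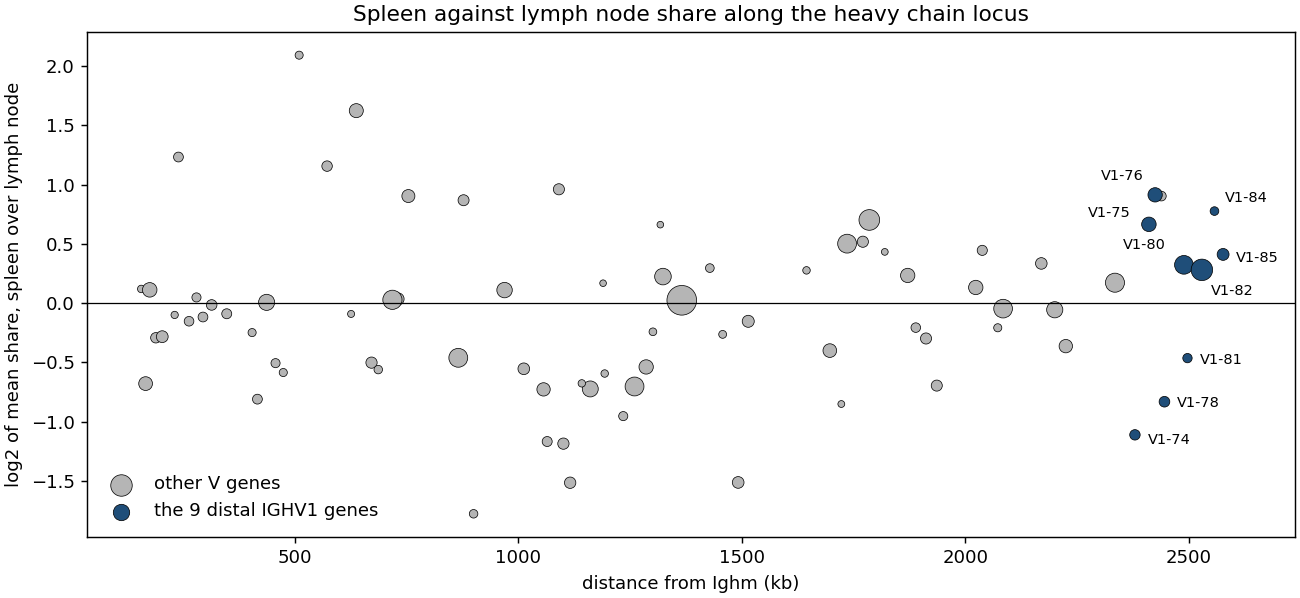
Log2 ratio of mean clonotype share, spleen over lymph node (linear axis of log2 values), against the distance of each V gene from Ighm in kb. Blue points are the 9 genes, grey points other V genes with a position, and point area grows with mean share. Of the 9, 6 lie above 0 and IGHV1-81, IGHV1-78 and IGHV1-74 below it.

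The rank of the genes was steady at the top and not at the bottom. In spleen the order of means was IGHV1-82, 80, 76, 75, 85, 78, 84, 74 and 81, at ranks 3, 5, 15, 16, 26, 49, 54, 56 and 60 of 161 V genes seen. Neighbours with overlapping replicates there were 76 with 75, 78 with 84, 84 with 74, and 74 with 81. In lymph node the order was IGHV1-82, 80, 75, 76, 78, 74, 85, 81 and 84, at ranks 3, 9, 26, 29, 35, 36, 39, 54 and 67 of 143. Overlap there joined 75 with 76, 78 with 74, and 74 with 85.

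The called genes in and next to the stretch gave a mixed picture. IGHV1-72, on its near side, had 3.51% ± 0.856 of spleen, 3.12% ± 0.200 of lymph node and 2.90% ± 0.376 of skin clonotypes (SD, n = 4). IGHV1-77, inside it, had 0.723% ± 0.233 in spleen and 0.387% ± 0.0159 in lymph node. In skin it was found in replicate 2 alone, with 13 clonotypes (4.06%), as was IGHV1-84. IGHV1-83, also inside, was nearly unused, with 151 spleen and 49 lymph node clonotypes and 0 in skin. Across the 12 tissue replicates, the genes whose share followed the summed share of the 9 most closely among 26 candidates were IGHV1-69 (Pearson r = 0.71), IGHV8-8 (0.65) and IGHV5-4 (0.58), all shares of the same libraries.

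Large clonotypes weigh on shares of copies and count as 1 in shares of clonotypes. The junctions below belong to the largest clonotype of each replicate that was found in both technical libraries (skin replicate 1 had none), with the V, J and class calls. Capitals mark the CDR3 between the conserved end codons.
IGHV1-84 IGHJ2 IgA skin replicate 2: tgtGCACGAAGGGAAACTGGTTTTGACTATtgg
IGHV1-85 IGHJ3 IgA skin replicate 3: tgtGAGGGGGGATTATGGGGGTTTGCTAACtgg
IGHV1-82 IGHJ2 IgA skin replicate 4: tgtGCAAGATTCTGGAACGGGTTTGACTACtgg
IGHV1-75 IGHJ3 IgG2 spleen replicate 1: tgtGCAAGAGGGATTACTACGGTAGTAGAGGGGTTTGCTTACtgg
IGHV1-75 IGHJ2 IgA spleen replicate 2: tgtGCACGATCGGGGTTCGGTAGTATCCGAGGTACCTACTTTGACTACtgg
IGHV1-76 IGHJ1 IgA spleen replicate 3: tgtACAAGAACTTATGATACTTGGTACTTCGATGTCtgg
IGHV1-85 IGHJ2 IgA spleen replicate 4: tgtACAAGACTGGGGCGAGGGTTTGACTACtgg
IGHV1-75 IGHJ3 IgM lymph node replicate 1: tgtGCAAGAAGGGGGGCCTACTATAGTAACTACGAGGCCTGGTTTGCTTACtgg
IGHV1-80 IGHJ2 IgG2 lymph node replicate 2: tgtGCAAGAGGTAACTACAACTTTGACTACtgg
IGHV1-78 IGHJ4 IgM lymph node replicate 3: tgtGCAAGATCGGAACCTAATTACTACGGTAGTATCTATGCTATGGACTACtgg
IGHV1-85 IGHJ1 IgM lymph node replicate 4: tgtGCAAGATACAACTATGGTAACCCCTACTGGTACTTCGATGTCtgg

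In skin all 3 were IgA with mutated V sequence. The IGHV1-84 clonotype of replicate 2 had 413 copies, 5.51% of that replicate, and 4.88% of its aligned V bases were mismatched. The IGHV1-85 clonotype of replicate 3 had 125 copies (2.51%) and 3.60% mismatches, and the IGHV1-82 clonotype of replicate 4 had 243 copies (4.31%) and 5.56%. The IGHV1-84 clonotype had a close companion, 1 base away in the junction, with 369 copies and 6.95% mismatches.
IGHV1-84 companion, capital at the base unlike the larger clonotype: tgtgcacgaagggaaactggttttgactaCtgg

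A lineage groups clonotypes of the same V and J gene and CDR3 length with junctions at least 85% identical. Both junctions and 9 variants of 1 copy each formed 1 lineage of 11 clonotypes and 791 copies, 10.6% of the copies of skin replicate 2. Of the 18 IGHV1-84 clonotypes in skin, 7 lay outside it, 6 of them with 1 copy. Without this lineage, an alternative chosen after seeing the data, the summed skin share was 9.37% ± 0.807 (8.29% to 10.2%), and skin no longer overlapped with lymph node.

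In spleen replicate 2 the IGHV1-75 IgA clonotype had 14644 copies and 10.8% V mismatches, and its lineage held 937 clonotypes and 49366 copies, 3.62% of the replicate. In spleen replicate 3 the IGHV1-76 IgA lineage held 202 clonotypes and 12137 copies (2.66%). The largest clonotype of spleen replicate 1, IgG2, had 1281 copies, and that of spleen replicate 4, IgA, 2050. In lymph node the largest were IgM in replicates 1, 3 and 4 (422, 270 and 1445 copies, nearly free of mismatches) and IgG2 in replicate 2 (1129 copies and 0 mismatches). The largest clonotype was IgA in 3 skin and 3 spleen replicates and in no lymph node replicate.

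The summed share of the 9 genes was followed class by class, as a description with no test between classes. Among IgM clonotypes they made 15.3% ± 2.06 in spleen, 10.1% ± 0.833 in skin and 12.5% ± 0.618 in lymph node (SD, n = 4). Among IgD they made 17.4% ± 1.99, 9.87% ± 6.41 and 14.1% ± 0.381. Among IgG2 they made 17.7% ± 2.63 in spleen and 1 of 10 clonotypes in skin. In lymph node IgG2 they made 16.5%, 18.6%, 15.5% and 15.4%, above their share of all lymph node clonotypes in any replicate. The rarer classes varied widely in lymph node, from 7.87% to 18.1% of IgG1, from 4.88% to 21.4% of IgG3 (46 of 431 clonotypes) and from 0% to 9.09% of IgE (2 of 46 clonotypes). In spleen they had 14.8% ± 1.16 of IgG1, 13.9% ± 2.53 of IgG3 and 12.3% ± 8.28 of IgE (33 of 209 clonotypes). Among IgA they made 14.7%, 17.4%, 19.1% and 15.2% in spleen, and 8.97%, 15.6%, 21.3% and 11.5% in lymph node. The IgA values of lymph node rest on 207 of 1437 clonotypes and those of skin (4%, 17.5%, 7.06% and 7.61%) on 32 of 324, so single lineages weigh heavily, and 15 of the 17 in skin replicate 2 were IGHV1-84.

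Whether a gene's share of switched or IgD clonotypes differed from its share of IgM was tested within each tissue on clonotype counts, with edgeR's quasi-likelihood test, the replicate as a block and Benjamini-Hochberg adjustment over all V genes tested. In spleen IgA, 3 of the 9 genes had a higher share than in IgM, where 16.7% of the 90 genes tested were higher, and 0 were lower (16.7% of all). Of 36 other IGHV1 genes 8 were higher and 1 lower. Their median log2 fold change was 0.44, against 0.35 over the 9. IGHV1-84 had 0.730%, 0.853%, 1.16% and 0.646% of IgA against 0.715%, 0.336%, 0.373% and 0.336% of IgM clonotypes, a log2 fold change of 1.12 (SE 0.357, adjusted p = 0.0144, higher in 4 of 4 replicates). IGHV1-76 had 3.30%, 3.02%, 4.16% and 2.21% of IgA against 2.10%, 1.98%, 2.36% and 2.05% of IgM, a change of 0.64 (SE 0.233, edgeR adjusted p = 0.0248, 4 of 4). IGHV1-74 had 0.146%, 1.65%, 0.840% and 0.588% of IgA against 0.169%, 0.578%, 0.484% and 0.351% of IgM, a change of 0.93 (SE 0.372, edgeR adjusted p = 0.0397, 3 of 4). IGHV1-82 and IGHV1-85, at -0.20 and -0.27, did not pass. None of these 3 calls was steady: without spleen replicate 2 or replicate 3 no member passed, without replicate 1 IGHV1-74 and IGHV1-84 passed, and without replicate 4 IGHV1-76 and IGHV1-84. Without the replicate block 0 of the 9 passed.

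In spleen IgD the differences from IgM were small and ran both ways. IGHV1-80 had 5.19%, 3.68%, 4.37% and 4.77% of IgD against 3.83%, 2.78%, 3.27% and 3.64% of IgM clonotypes, a log2 fold change of 0.35 (SE 0.0621, edgeR adjusted p = 7.74e-05). IGHV1-82 rose by 0.20 (SE 0.0555, edgeR adjusted p = 0.00526) and IGHV1-74 by 0.34 (SE 0.112, edgeR adjusted p = 0.0153). IGHV1-78 had 0.368%, 0.405%, 0.418% and 0.417% of IgD against 0.621%, 0.584%, 0.588% and 0.550% of IgM, a change of -0.56 (SE 0.106, edgeR adjusted p = 0.000161). All 4 replicates ran in the called direction for each of these genes. So 3 of the 9 were higher (16% of the 94 genes tested) and 1 lower (27.7%). Of 38 other IGHV1 genes 7 were higher and 3 lower. Without the replicate block 0 of the 9 passed, and without replicate 4 the count of calls was 2. IGHV1-78 and IGHV1-80 passed whichever replicate was left out. IGHV1-74 did not pass without replicate 3 or 4 (edgeR adjusted p = 0.380 and 0.158) or with DESeq2 (adjusted p = 0.0923). IGHV1-82 did not pass without replicate 4 (edgeR adjusted p = 0.0914).

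In spleen IgG2, 0 of the 9 passed edgeR's test (4.55% of 88 genes were higher and 10.2% lower), 1 had an unadjusted p under 0.05, and DESeq2 called 0. In lymph node IgA 0 passed (1.22% of 82 genes were higher and 0% lower), 2 had an unadjusted p under 0.05, and DESeq2 called IGHV1-76. IGHV1-76 had 3.14%, 2.36%, 3.14% and 2.61% of lymph node IgA against 1.08%, 1.18%, 1.04% and 1.12% of IgM, a log2 fold change of 1.30 (SE 0.424, edgeR adjusted p = 0.0679). IGHV1-84 stood at 1.88 (SE 0.811, edgeR adjusted p = 0.184). In lymph node IgG2 0 passed, as did 0% of 86 genes in either direction, 2 had an unadjusted p under 0.05, and DESeq2 called 0. Without lymph node replicate 3 the count was 1. Whether the class differences themselves differ between spleen and lymph node was not tested.

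**Figure D3:**
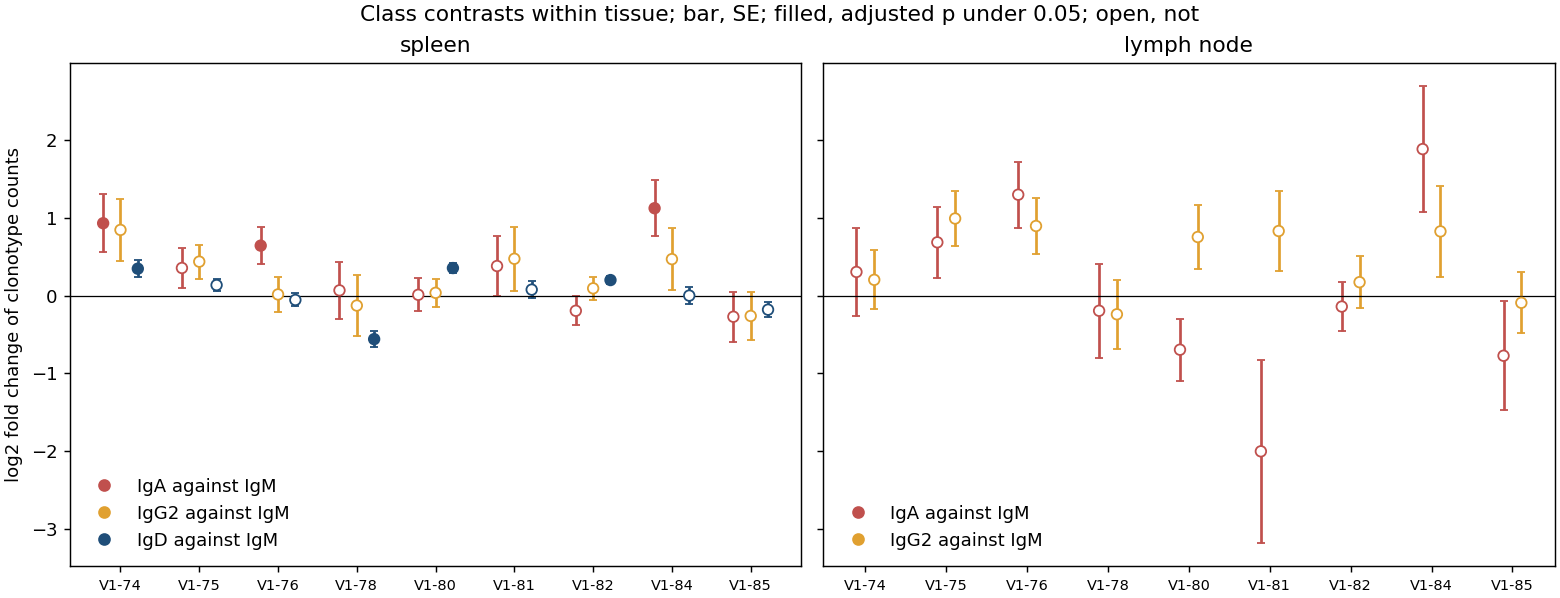
Log2 fold change of clonotype counts against IgM (linear axis of log2 values) for IgA, IgG2 and IgD in spleen (left) and for IgA and IgG2 in lymph node (right), per gene. Bars are standard errors, filled points have an adjusted p under 0.05 in edgeR's quasi-likelihood test and open points do not. IGHV1-74, IGHV1-76 and IGHV1-84 are filled for spleen IgA, and no lymph node point is filled.

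J gene pairing was described in spleen. Among IgM clonotypes of the 9 genes IGHJ2 made 39.0% ± 0.271, IGHJ4 30.2% ± 1.29, IGHJ1 18.9% ± 0.622 and IGHJ3 11.9% ± 1.26 (SD, n = 4). For all other V genes IGHJ2 made 35.2% ± 0.266, IGHJ4 32.6% ± 1.76, IGHJ1 20.6% ± 0.454 and IGHJ3 11.6% ± 1.40. IGHJ2 lay above the other V genes, and IGHJ1 below them, in every spleen replicate. In IgA, IGHJ3 made 32.4%, 19.6%, 25.5% and 27.9% for the 9 genes against 12.3%, 10.1%, 12.2% and 13.0% in IgM, without overlap, and 28.9% ± 5.18 for all other V genes. The pairing of each V gene with each J gene was tested in spleen as log2 odds with limma, the replicate as a block and Benjamini-Hochberg adjustment over 168 pairs, of which 24 belonged to 6 of the 9 genes. Of those 24, 3 were higher in IgA (14.3% of all pairs) and 0 lower (5.36%), and all 3 were with IGHJ3. IGHV1-85 paired with IGHJ3 in 34.5% ± 5.76 of IgA against 11.1% ± 1.84 of IgM clonotypes (log2 odds change 2.07, SE 0.386, limma adjusted p = 0.00907). IGHV1-82 did so in 25.7% ± 8.60 against 10.2% ± 1.24 (1.58, SE 0.391, limma adjusted p = 0.0212) and IGHV1-80 in 31.2% ± 7.22 against 15.1% ± 1.85 (1.33, SE 0.384, limma adjusted p = 0.0321). These calls were not steady. Without spleen replicate 1 or replicate 2 none of the 24 passed, without replicate 3 there were 2 higher and 1 lower, and without replicate 4 there were 2 higher. IGHV1-80 with IGHJ3 failed in all 4 (limma adjusted p from 0.0702 to 0.0951). Without the replicate block 4 pairs were higher and 3 lower.

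CDR3 length of IgM clonotypes of the 9 genes was 11.9 amino acids ± 0.0749 in spleen and 12.1 ± 0.0657 (SD, n = 4) in lymph node, and 11.9 ± 0.0695 and 12.3 ± 0.0449 for all other V genes. Spleen was shorter than lymph node without overlap for 4 of the 9 genes (IGHV1-75, IGHV1-76, IGHV1-82 and IGHV1-85), as for 46.2% of 80 V genes. The IGHJ1 share of IgM was higher in spleen for IGHV1-82 alone, 1 of the 9 (8.75% of all), and the IGHJ2 share for 0 (8.75%). The IGHJ3 share was higher in spleen for 5 of the 9 (IGHV1-74, IGHV1-75, IGHV1-78, IGHV1-82 and IGHV1-84; 37.5% of all) and the IGHJ4 share lower for 4 (IGHV1-74, IGHV1-75, IGHV1-82 and IGHV1-84; 48.8%). In spleen, CDR3 length did not pass between IgA and IgM for any of the 6 genes with enough clonotypes (limma, 2.38% of 42 genes longer and 0% shorter), with 0 at an unadjusted p under 0.05. In skin the IgA clonotypes of the 9 genes had a mean CDR3 of 10.9 ± 0.489 amino acids against 12.0 ± 0.411 for all other V genes, on 32 clonotypes. Replicates 1 to 4 held 2, 17, 6 and 7 of these. The IGHV1-84 lineage of skin replicate 2, with a CDR3 of 9 amino acids, made up 11 of the 32.

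Mutated clonotypes, those with at least 1% of the aligned V bases mismatched, were more frequent among the IgM of most of these genes than among other V genes. Of IgM clonotypes of the 9 together, 18.6% ± 2.61 were mutated in spleen and 18.8% ± 2.87 in lymph node, against 13.4% ± 2.36 and 11.5% ± 1.33 for all other V genes (SD, n = 4). IGHV1-84 was the highest, at 31.6%, 39.5%, 31.6% and 20.8% in spleen and 34.1%, 33.2%, 25.7% and 17.0% in lymph node. IGHV1-81, whose sequence differs from IGHV1-76 at 7 bases, was the lowest, at 5.21%, 10.8%, 10.7% and 8.80% in spleen and 10.3%, 10.8%, 2.74% and 5.21% in lymph node. The ranges of these 2 genes did not overlap in either tissue. The mean V mismatch of IgM clonotypes put IGHV1-84 at rank 5 of 80 V genes in spleen (1.45% ± 0.396) and rank 6 in lymph node (1.19% ± 0.303). IGHV1-81 was at ranks 52 (0.390% ± 0.105) and 61 (0.317% ± 0.107). None of the 9 differed in mismatch between spleen and lymph node without overlap (3.75% of 80 genes higher in spleen, 0% lower).

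Gene shares among mutated IgM clonotypes were then set against those among clonotypes with 0 mismatches, with the same edgeR test. In spleen 5 of the 9 had a higher share among the mutated (33.3% of 102 genes) and 0 a lower one (25.5%). IGHV1-84 had the largest change, 1.59 on the log2 scale (SE 0.216, edgeR adjusted p = 3.22e-05), and IGHV1-76 (1.05), IGHV1-74 (0.80), IGHV1-75 (0.73) and IGHV1-82 (0.57) followed. Of 38 other IGHV1 genes in spleen 13 were higher and 4 lower. In lymph node 7 of the 9 were higher (34.4% of 93 genes) and 1 lower (32.3%). There 18 of 36 other IGHV1 genes were higher and 7 lower. IGHV1-84 stood at 1.504 (SE 0.235, edgeR adjusted p = 0.000186) and IGHV1-82 at 1.003 (SE 0.100, edgeR adjusted p = 6.94e-06). The others were IGHV1-75 (1.06), IGHV1-80 (0.89), IGHV1-76 (0.79), IGHV1-78 (0.52) and IGHV1-74 (0.38). Among the genes called in either tissue, only IGHV1-74 missed the threshold when a replicate was left out. In lymph node the edgeR adjusted p of 0.0453 rose to 0.0832, 0.191 and 0.0792 without replicates 2, 3 and 4, and in spleen it was 0.115 without replicate 2. With DESeq2 IGHV1-74 passed in neither tissue (adjusted p = 0.0972 in spleen and 0.0515 in lymph node). IGHV1-81 had a lower share, -0.96 (SE 0.274, edgeR adjusted p = 0.00933). With clonotypes of 1 copy left out, 0 of the 9 passed in either tissue. IGHV1-84 then stood at 0.17 in spleen and 0.30 in lymph node, and the other genes called in lymph node lay between -0.10 and 0.50. In spleen IGHV1-75 (0.57) and IGHV1-76 (0.59, edgeR adjusted p = 0.0689) kept more of their change.

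Many mutated sequences of the 9 genes read as a composite of several genes. A composite here has at least 2 mismatches. It matches the shared V sequence of a V gene up to some base and that of another from there on. The called gene may be either of them. In IgM, 45.2% ± 0.470 of the mutated clonotypes of the 9 genes were composites in lymph node and 34.8% ± 3.41 in spleen, against 28.5% ± 0.920 and 20.8% ± 2.45 for all other V genes (SD, n = 4). In the positive control the values were 1.83% and 0.617%. The shared V sequences came from the tissues alone, and most of the 9 genes had no mismatch-free IgM clonotype in the control (below). Control sequences of such genes could hardly match them, so the control values cannot be set beside those of the tissues. In IgA composites were less common, 11.5% of 8467 mutated clonotypes in spleen and 15.9% of 145 in lymph node for the 9 genes, and 5.40% and 8.24% for the others. The commonest for IGHV1-80, IGHV1-82 and IGHV1-76 are shown, with capitals at the bases unlike the called gene.
IGHV1-80 composite: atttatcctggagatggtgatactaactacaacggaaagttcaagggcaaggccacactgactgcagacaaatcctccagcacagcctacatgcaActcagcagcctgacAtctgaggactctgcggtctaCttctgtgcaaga
IGHV1-82 composite: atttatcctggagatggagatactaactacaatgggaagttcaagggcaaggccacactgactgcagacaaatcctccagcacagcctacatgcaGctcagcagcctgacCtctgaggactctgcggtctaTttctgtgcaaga
IGHV1-76 composite: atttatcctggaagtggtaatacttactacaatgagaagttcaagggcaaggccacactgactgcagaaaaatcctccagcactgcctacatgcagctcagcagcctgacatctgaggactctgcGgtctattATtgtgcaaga

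The IGHV1-80 form carries the 3′ part of IGHV1-82 and was found with 253 junctions in all 8 spleen and lymph node replicates. The IGHV1-82 form carries a 3′ part that IGHV1-75, IGHV1-80 and IGHV1-84 share, with 228 junctions in 8 replicates. The IGHV1-76 form carries the 3′ part of IGHV1-53 and IGHV1-72, with 89 junctions in 8 replicates. The IGHV1-80 form joined 39 combinations of J gene and CDR3 length, so it was not 1 lineage. How the composites came about was not tested. Without them, an alternative chosen after seeing the data, 12.1% ± 1.71 of IgM clonotypes of the 9 genes were mutated in spleen and 10.3% ± 1.64 in lymph node, against 10.6% ± 1.91 and 8.19% ± 0.855 for the others. The calls fell to 3 in spleen (IGHV1-84 1.71, IGHV1-76 1.05 and IGHV1-75 0.65) and to 6 in lymph node, where IGHV1-84 (1.34), IGHV1-75 (0.64), IGHV1-82 (0.59), IGHV1-76 (0.55) and IGHV1-80 (0.51) were higher and IGHV1-81 (-0.93) lower.

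**Figure D4:**
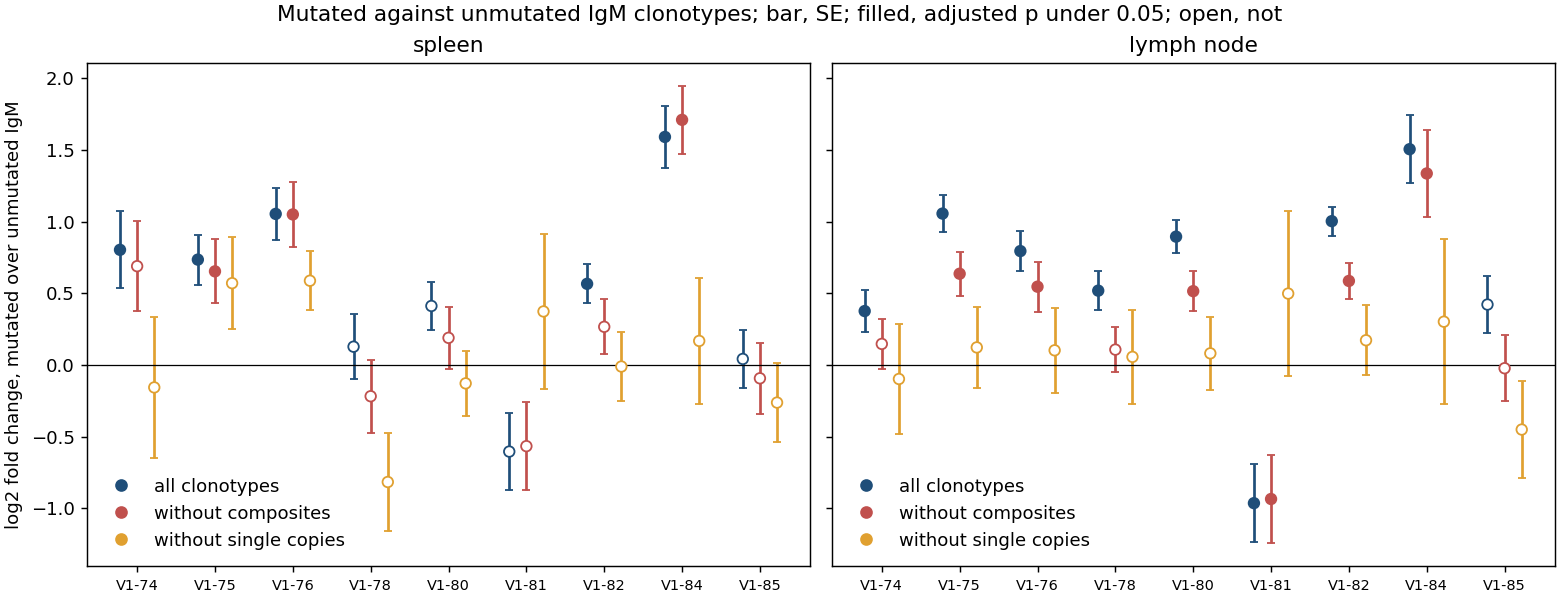
Log2 fold change of each gene's share, mutated over mismatch-free IgM clonotypes (linear axis of log2 values), in spleen (left) and lymph node (right). Blue points use all clonotypes, red points leave out composites and yellow points leave out clonotypes of 1 copy, with standard errors as bars and filled points at an adjusted p under 0.05 in edgeR's quasi-likelihood test. IGHV1-84 is highest in blue and red in both tissues, and no yellow point is filled.

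Some junctions of these genes also occurred under another V gene of the same replicate with at least 5 times the copies. This held for 6.87% ± 3.03 of the clonotypes of the 9 genes in spleen, 9.67% ± 3.60 in skin, 1.95% ± 0.783 in lymph node and 7.57% in the control. For all other V genes it held for 4.46% ± 2.15, 6.56% ± 1.79, 1.18% ± 0.495 and 4.55% (SD, n = 4). Their part in the shares above was not tested.

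IgA clonotypes carried more mismatches than IgM clonotypes. The mean V mismatch of IgA in the 9 genes was 3.58% ± 0.665 in spleen and 3.41% ± 0.730 in lymph node, against 0.791% ± 0.136 and 0.755% ± 0.0969 in IgM (SD, n = 4). In all other V genes IgA stood at 3.08% ± 0.300 and 2.17% ± 0.165. In skin IgA of the 9 genes had 4.61% ± 1.20 and that of all other V genes 3.33% ± 0.712, on 32 and 292 clonotypes. IGHV1-75 in spleen replicate 2, which held the lineage of 937 clonotypes, had 8.36% when clonotypes were averaged and 5.32% when lineages were.

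The positive control differed from the tissues in the V sequence of these genes. In spleen and lymph node most IgM clonotypes had no V mismatch, 60.8% ± 4.99 in spleen and 57.4% ± 3.18 in lymph node for the 9 genes and 63.5% ± 5.90 and 62.0% ± 2.38 for the others (SD, n = 4). In skin the means were below 50%, at 30.7% ± 7.06 for the 9 genes, on 76 IgM clonotypes, and 46.5% ± 2.61 for the others. The highest skin replicate of the others stood at 50.2%. In the control, mismatch-free clonotypes made 0% for 8 of the 9 genes, including 0 of 1835 for IGHV1-80 and 0 of 1934 for IGHV1-82. IGHV1-84 alone had them, at 50.2% (480 of 957), and 1999 of its 2288 control sequences were called allele *02, against 384 called *02 and 4811 called *01 in spleen. All other V genes together had 46.0% in the control. Of 91 V genes with at least 20 IgM clonotypes in both control and spleen, 35 (38.5%) were below 1% mismatch-free in the control, 5 of the 6 distal genes among them, and 15 were so in spleen. In the control most IGHV1-80 and IGHV1-82 junctions carried 1 fixed V sequence, shown with capitals at bases unlike the tissue sequence of the gene.
IGHV1-80 control form: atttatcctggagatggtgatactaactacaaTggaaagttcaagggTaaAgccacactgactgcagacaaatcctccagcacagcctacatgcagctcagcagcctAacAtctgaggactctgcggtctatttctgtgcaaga
IGHV1-82 control form: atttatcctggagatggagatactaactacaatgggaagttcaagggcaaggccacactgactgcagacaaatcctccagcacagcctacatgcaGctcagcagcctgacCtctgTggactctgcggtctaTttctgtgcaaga

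The IGHV1-80 form had 5 mismatches and 1171 of 1833 junctions (63.9%), and the IGHV1-82 form 4 mismatches and 1107 of 1933 (57.3%). Neither form was found with any tissue junction. The IGHV1-82 form differs at 1 base from the IGHV1-82 composite of the tissues printed above. For the other genes the commonest control sequence covered from 20% (IGHV1-85, 2 of 10) to 57.1% (IGHV1-75, 4 of 7) of junctions, both on few junctions. For IGHV1-84 it had 0 mismatches but differed at 3 bases from the tissue sequence of the gene. The mismatch values of the control are not set beside those of the tissues as mutation. Its low share of the 9 genes (IGHV1-75 at 0.00362%, IGHV1-81 at 0.00233% and IGHV1-85 at 0.00646%) goes with these differences, whose part in it was not tested.

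**Figure D5:**
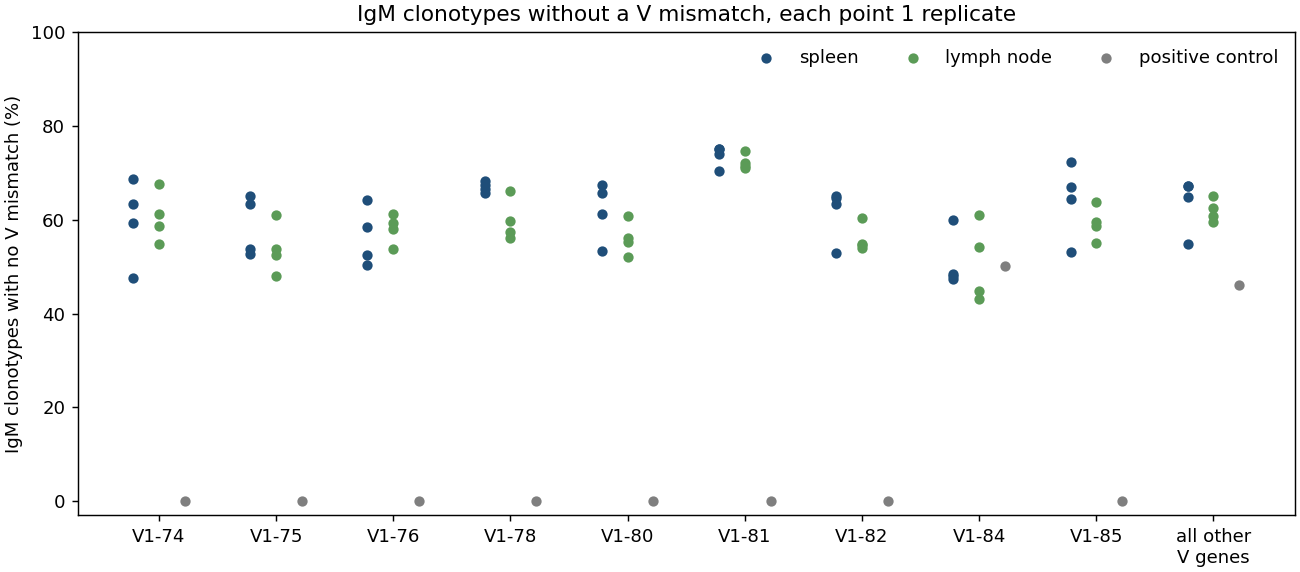
Share of IgM clonotypes without a V mismatch (%, axis from 0 to 100) per gene in spleen, lymph node and positive control, each point 1 replicate. The tissues lie above 40% for every gene, and the control lies at 0 for all but IGHV1-84 (50.2%) and the pooled other V genes (46.0%).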

How the data were processed

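The deposited tables give a count of copies (duplicate_count) per sequence with V, J and class calls. Per the labels' protocols, molecular identifiers were added at reverse transcription, V primers were used and reads ran from framework 2 into the constant region. Whether a copy is a molecule or a read, and the aligner, are not given in the sources used here; mm10 is named in the submitters' processing notes. The 26 libraries were read with Python 3.11.15 (pandas 2.3.3, numpy 2.4.6, scipy 1.17.1), the 2 technical libraries of a replicate were added, and clonotypes were counted by V gene, J gene and junction. Groups came from titles. Class and mutation contrasts used edgeR 4.0.16 (TMM scaling, its low-count filter, replicate block; classes of 1 replicate share its libraries), with DESeq2 1.42.0 as an alternative, and CDR3 length and J odds (0.5 added to counts, at least 20 clonotypes per column) used limma 3.58.1 in R 4.3.3, with Benjamini-Hochberg adjustment over all V genes or pairs and a threshold of 0.05. The steps were tested on simulated data. All 9 genes were named, with called neighbours, the 3 genes most correlated with their sum, and the largest clonotype per replicate found in both technical libraries. Members and lists were chosen with earlier results of these data known. Other alternatives were copies, lineages, single copies, left-out replicates and technical libraries. Positions come from RefSeq GRCm38.p6. Skin classes were too sparse to test and have values only.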

Additional observations from a re-analysis of the deposited data

Results flagged for a closer look

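Of 104 groups of 4 replicates, 9 (8.65%) held a replicate far from the others by Dixon's criterion, where chance gives about 1 in 20. In skin these were the shares of clonotypes of IGHV1-84 in replicate 2 (5.63%, the others at 0), of IGHV1-82 in replicate 4 (6.18%, the others at 2.5% to 3.11%) and of IGHV1-78 in replicate 4 (0%, the others near 0.3%). The IGHV1-84 value falls to that of 7 clonotypes without its largest lineage. By lineages the IGHV1-82 value of skin replicate 4 was 3.80%, against 3.41% to 4.07% in the other skin replicates. The IGHV1-78 value is 0 clonotypes against 1 in each other skin replicate.

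In spleen, replicate 1 stood apart for the IGHV1-84 share of IgM (0.715%). Spleen replicate 2, which has the most clonotypes, stood apart for the mean V mismatch of IgM clonotypes of IGHV1-75 (2.24%) and IGHV1-74 (1.58%), and of IgA clonotypes of IGHV1-85 (2.17%, the lowest). In lymph node IgA, replicate 3 stood apart for IGHV1-80 (2.44%) and replicate 4 for IGHV1-81 (0.435%), which rest on 7 and 2 clonotypes.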

How the results depend on the processing

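Over the alternatives tried, 182 values of single genes kept their direction and side of the threshold, 76 kept the direction but no longer passed, and 4 changed sign; of the counts and summed shares 100 stayed within 1.5 times or 1 SD and 35 did not. Without clonotypes of 1 copy the changes of sign in mutated against unmutated IgM were IGHV1-74 (-0.16) and IGHV1-82 (-0.0106) in spleen, and IGHV1-74 (-0.10) and IGHV1-81 (0.50) in lymph node. Spleen IgA calls among the 9 numbered 0 with no filter, 0 with clonotypes in both technical libraries, 1 by copies, 1 without single copies and 5 by lineages, and 0 to 2 with a replicate left out. Spleen IgD calls were 2 by copies and 2 to 5 with a replicate left out, and spleen IgG2 calls 1 without single copies. Lymph node IgA calls were 1 with DESeq2, 1 by lineages and 1 of 2 genes tested with clonotypes in both technical libraries, all IGHV1-76 and higher, and 1 without single copies, IGHV1-80 and lower. Lymph node IgG2 calls were 2 by lineages and 0 to 1 with a replicate left out. Mutated against unmutated calls were 2 by copies, 0 without single copies, 0 in both technical libraries (6 genes tested) and 3 without composites in spleen, and 3, 0 and 0 (1 gene tested) by the first 3 of these in lymph node. J pairing calls were 6 (3 higher, 3 lower) with at least 50 clonotypes per column and 0 to 3 with a replicate left out. Removing the replicate block, which ties classes of the same libraries, gave 0 calls for spleen IgA, 0 for spleen IgD, 2 for lymph node IgA, 3 for lymph node IgG2, 3 for spleen mutated IgM and 7 (4 higher, 3 lower) for J pairing, and moved no other count of calls by over 1.5 times. The summed skin share was 7.08% with technical library 1 alone and 12.2% with library 2 alone, and the lymph node share 12.3% without composites. The composite alternatives and that on the skin IGHV1-84 lineage were chosen after seeing the data. Clonotypes in both technical libraries were not run for spleen IgD, where a replicate had 0. The causes were not tested. Skin has 28 to 41 clonotypes of these genes per replicate, which limits every skin value.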
